A study of Drosophila melanogaster with 9 samples.

Results

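The genes described here encode subunits of 3 Polycomb group complexes of Drosophila: Polycomb repressive complex 2 (E(z), esc, escl, Su(z)12, Caf1-55 and the accessory subunit Pcl), the Polycomb repressive deubiquitinase PR-DUB (caly, also called calypso, and Asx) and the DNA-binding complex PhoRC (Sfmbt and phol). They were listed by name and matched to the array through its annotation table, by current symbol or synonym. All 10 were measured, each by 1 probe set that lists no other gene, out of 11982 genes with a named probe set. caly was found through its synonym calypso. pho, which encodes the main DNA-binding subunit of PhoRC, was not analysed here.

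The series measured RNA on 9 Affymetrix Drosophila_2 arrays and links O-GlcNAcase to nutrient-responsive oogenesis in its title. Its groups were an OGA mutant (3 arrays), an SXC mutant (3 arrays) and wild type (3 arrays). Oga encodes the O-GlcNAcase, which takes O-linked N-acetylglucosamine off nuclear and cytoplasmic proteins. sxc, short for super sex combs, encodes the opposing enzyme, the transferase that puts it on. The labels give no allele, strain background, sex, age, stage or tissue for any group, nor whether a mutant stock was 1 line, and they do not say whether arrays of a group came from separate animals.

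Polycomb group proteins keep developmental genes silent through chromatin. PRC2 methylates histone H3 at a lysine linked to silencing: E(z) is the methyltransferase, and it needs esc or its relative escl, Su(z)12 and the histone-binding protein Caf1-55. PR-DUB removes ubiquitin from histone H2A, with caly as the protease and Asx as the partner that activates it, and PhoRC ties silencing to DNA elements through pho or its relative phol. sxc was itself first described as a Polycomb group gene from its homeotic mutant phenotype, and O-GlcNAc is carried by the Polycomb protein Polyhomeotic.

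Of these 10 genes, 1 changed: Asx, the regulatory partner in PR-DUB, was 1.44-fold higher in the SXC mutant than in wild type. The gene for its catalytic partner, caly, did not pass the test, nor did any PRC2 or PhoRC gene. In the OGA mutant 0 of the 10 passed against wild type. Of all genes, 12.9% passed in the SXC mutant and 0.00835% in the OGA mutant, so neither count stands apart from its background. Values are given on the log2 scale of the deposited table, on which a difference of 1 is a doubling. A level on this scale is compared only with levels of the same probe set. Genes were called changed at an adjusted p under 0.05 (limma, Benjamini-Hochberg over all 11982 genes).

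**Figure D1:**
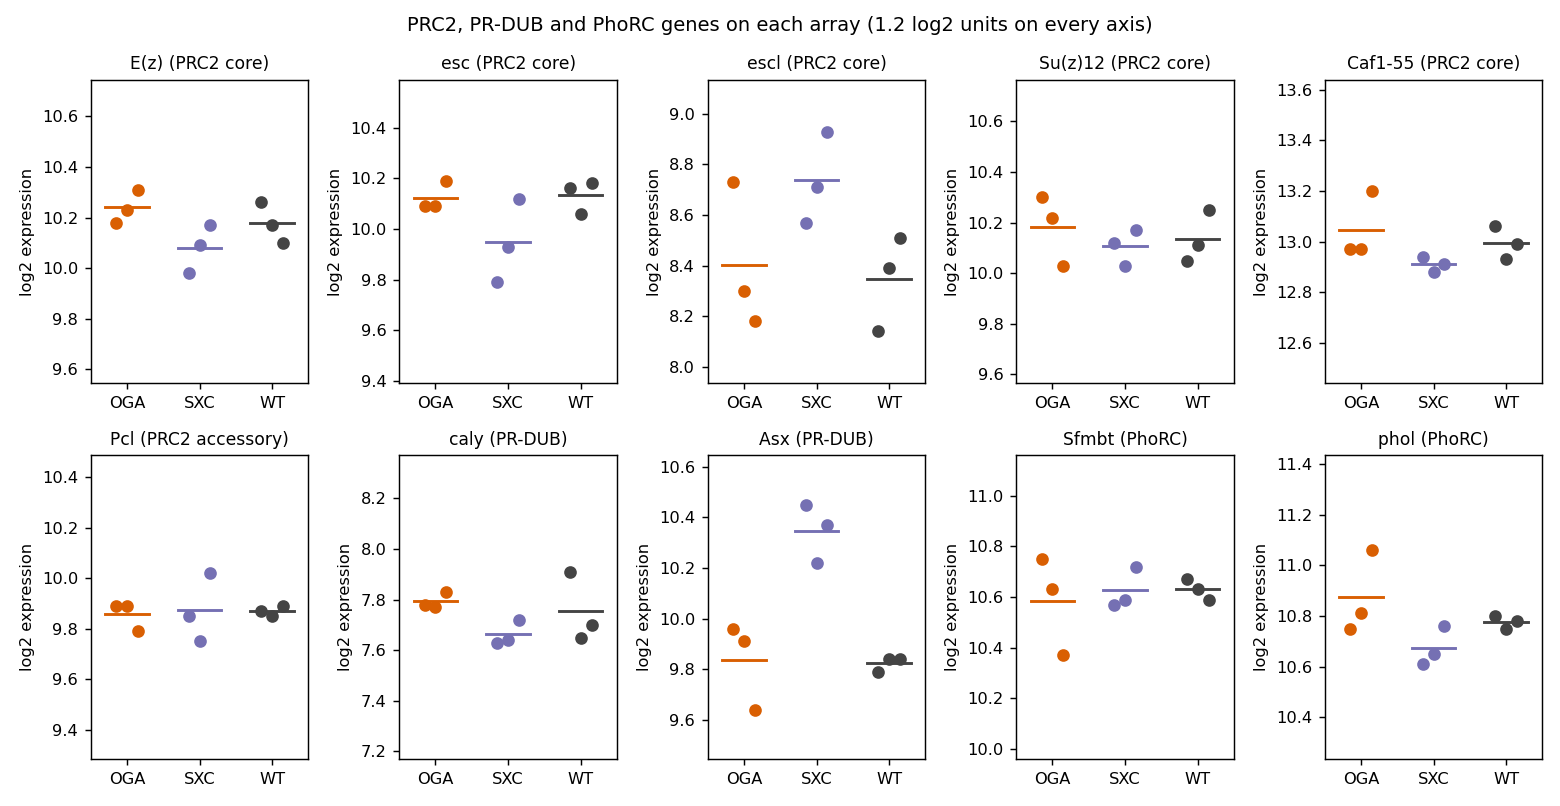
Level of each gene on each array (vertical axis, log2; every axis spans the same range of 1.2 log2 units), with 1 point per array and a bar at the group mean, for the OGA mutant, the SXC mutant and wild type (n = 3 each). The 3 SXC mutant points of Asx, at 10.22 to 10.45, lie above all other points of that gene; in the OGA mutant no gene is separated from wild type.

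The targeted genes were low in their own mutants. sxc had a level of 10.35 ± 0.02 in the SXC mutant and 11.84 ± 0.04 in wild type (SD, n = 3 each). Oga had 8.84 ± 0.08 in the OGA mutant and 9.90 ± 0.22 in wild type. Correlations between arrays over all genes were 0.998 to 0.999 within groups and 0.993 to 0.999 between groups. All p-values rest on the spread between arrays, which may be technical.

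Asx encodes Additional sex combs, the cofactor without which the caly deubiquitinase has little activity. Asx had levels of 10.45, 10.22 and 10.37 on the SXC mutant arrays, against 9.79, 9.84 and 9.84 on the wild-type arrays. The lowest SXC mutant array was above the highest wild-type array, and the wild-type arrays lay within 0.05 of each other. The rise was 0.52 on the log2 scale with SE 0.09 (95% interval 0.32 to 0.72), a fold of 1.44 with bounds of 1.25 and 1.65 (limma adjusted p = 0.00444). In bulk RNA, more cells that express a gene and more of its RNA per cell cannot be told apart. The adjusted p stayed between 0.000655 and 0.0385 in the 19 alternative settings tried, with a log2 change of 0.45 to 0.59.

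That is 1 of 10 genes higher, read against 5.09% of all genes higher in the SXC mutant and 12.9% called in either direction. With 0 of 10 lower, the background is 7.84% of all genes lower. A share of 1 in 10 lies between the first and the second of these background shares. By size, the change of Asx ranked 369 of 11982, so that 96.9% of genes had a smaller one. Over the 10 genes the median change was −0.06, against −0.01 for all genes, and 7 of the 10 changes were negative, against 51.8% of all genes. Groups did not overlap for 2 genes, Asx and escl, against 32.7% of all genes.

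caly encodes the ubiquitin protease of PR-DUB, the fly counterpart of mammalian BAP1. Its levels were 7.63, 7.64 and 7.72 in the SXC mutant, against 7.91, 7.65 and 7.70 in wild type. A single wild-type array stood above the rest, and the others overlapped those of the mutant. The difference was −0.09 with a 95% interval of −0.25 to 0.07 (limma adjusted p = 0.520).

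The difference between Asx and caly on the same array was wider in the SXC mutant. Asx minus caly was 2.82, 2.58 and 2.65 on the SXC mutant arrays, against 1.89, 2.19 and 2.14 on the wild-type arrays, and the groups did not overlap. On the OGA mutant arrays it was 2.18, 2.14 and 1.81, which overlaps wild type. The difference of 2 probe sets shows unequal change between groups and not which transcript is more abundant, and the pair was chosen after its values were seen, so no test is given.

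**Figure D2:**
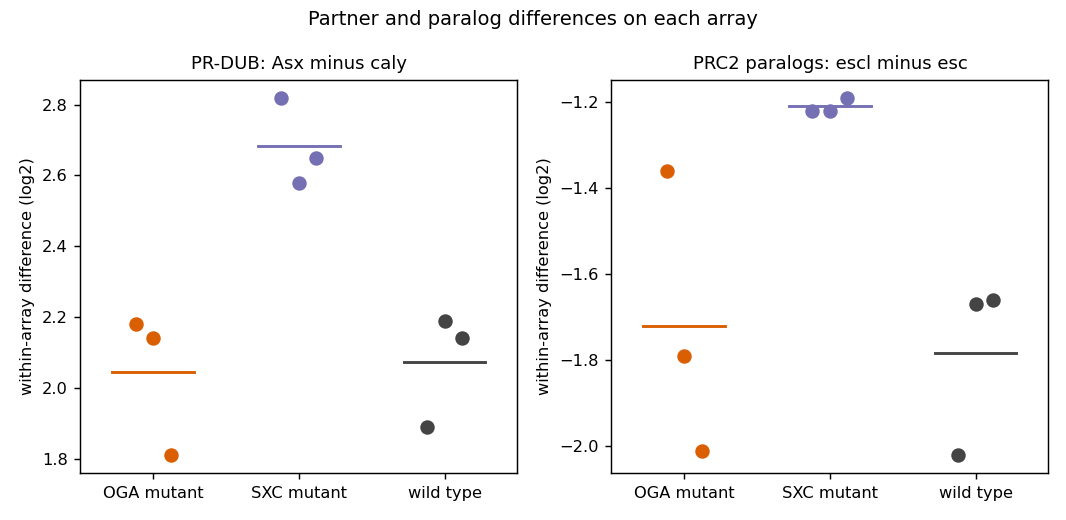
Difference in log2 level between 2 genes on the same array (vertical axis), for the PR-DUB pair Asx and caly (left) and the PRC2 paralogs escl and esc (right), with 1 point per array and a bar at the group mean (n = 3 each). SXC mutant arrays lie at 2.58 to 2.82 for Asx minus caly and at −1.22 to −1.19 for escl minus esc, above all OGA mutant and wild-type arrays in both panels.

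escl and esc are paralogs whose WD40-repeat proteins fill the same place in PRC2; esc is known chiefly for its early, maternally supplied role and escl for later stages. escl had levels of 8.57, 8.71 and 8.93 in the SXC mutant, against 8.14, 8.39 and 8.51 in wild type, so the groups were separated by a narrow gap. The difference was 0.39 with SE 0.14 (95% interval 0.07 to 0.70) and did not pass over all genes (limma adjusted p = 0.109). esc differed the other way, with 9.79, 9.93 and 10.12 in the SXC mutant and 10.16, 10.06 and 10.18 in wild type. These arrays overlapped, and the difference of −0.19 with SE 0.08 did not pass either (limma adjusted p = 0.185).

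Within arrays, escl minus esc was −1.22, −1.22 and −1.19 in the SXC mutant, against −2.02, −1.67 and −1.66 in wild type. The OGA mutant arrays, at −1.36, −1.79 and −2.01, overlapped those of wild type. This pair, too, was chosen after its values were seen and is given without a test. A further probe set is listed for both escl and Qtzl, a gene that arose in part from escl, and cannot separate them. It read 11.53, 11.40 and 11.43 in the SXC mutant and 11.73, 11.64 and 11.56 in wild type. Its difference of −0.19 runs opposite to that of the probe set of escl alone (exact permutation p = 0.1, two-sided, the smallest that 3 against 3 arrays allow).

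The remaining PRC2 genes had small differences in the SXC mutant. E(z), the catalytic subunit, had 9.98, 10.09 and 10.17 in the SXC mutant and 10.26, 10.17 and 10.10 in wild type, a difference of −0.10 (95% interval −0.26 to 0.06, limma adjusted p = 0.455). Su(z)12, the zinc finger subunit that PRC2 activity depends on, had 10.12, 10.03 and 10.17 against 10.05, 10.11 and 10.25 in wild type, a difference of −0.03 (−0.21 to 0.15). Mutant and wild-type arrays of both genes were interleaved.

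Caf1-55, the histone chaperone shared by several chromatin complexes, had levels of 12.94, 12.88 and 12.91 in the SXC mutant, against 13.06, 12.93 and 12.99 in wild type. The highest mutant array exceeded the lowest wild-type array only slightly, and the difference was −0.08 (95% interval −0.25 to 0.08, limma adjusted p = 0.547). Pcl, the Polycomblike subunit that helps PRC2 reach high levels of methylation, had 9.85, 9.75 and 10.02 in the SXC mutant and 9.87, 9.85 and 9.89 in wild type. The mutant arrays lay on both sides of wild type, and the difference was 0.0003 (−0.16 to 0.16).

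In PhoRC, neither measured gene passed. Sfmbt, whose protein reads methylated histones through its malignant brain tumour repeats, had levels of 10.57, 10.59 and 10.72 in the SXC mutant, against 10.67, 10.63 and 10.59 in wild type. The arrays overlapped, with a difference of −0.0046 (95% interval −0.20 to 0.20). phol, the relative of pho that binds the same DNA elements, had 10.61, 10.65 and 10.76 in the SXC mutant, against 10.80, 10.75 and 10.78 in wild type. All but 1 mutant array were below wild type, and the difference was −0.10 (−0.29 to 0.08, limma adjusted p = 0.496).

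In the OGA mutant the 10 genes stayed close to wild type. 0 of 10 were called, against 0.00835% of all genes, which is 1 gene, Oga itself. The call of Oga ended without any 1 OGA mutant array or wild type replicate 3 (limma adjusted p = 0.05 to 0.075), with the arrays of only these groups (0.0666) and with no moderation (0.979). At an unadjusted p under 0.05 in limma there were also 0 of the 10, against 3.91% of all genes. In the SXC mutant 3 of them (Asx, escl and esc) had such a p, against 26.1% of all genes, so neither count stands apart from its background. The differences of the 10 genes in the OGA mutant against wild type ran from −0.04 (Sfmbt) to 0.09 (phol), with limma adjusted p-values of 0.975 to 0.996. Groups overlapped for all 10, while 9.04% of all genes had groups that did not. The intervals bound how large a change could be: the widest, for escl, ran from −0.26 to 0.37. The median difference of the 10 genes was 0.04, against −0.001 for all genes.

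Asx in the OGA mutant had levels of 9.96, 9.91 and 9.64. These lay on both sides of the wild-type arrays, and the difference was 0.01 with SE 0.09 (95% interval −0.19 to 0.21). phol had 10.75, 10.81 and 11.06, of which 1 array stood clearly above wild type, and its difference of 0.09 had an interval of −0.09 to 0.28. E(z) had 10.18, 10.23 and 10.31, with a difference of 0.06 (−0.10 to 0.22). escl had 8.73, 8.30 and 8.18, with 1 array in the range of the SXC mutant. esc had 10.09, 10.09 and 10.19, within or just above the wild-type range.

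**Figure D3:**
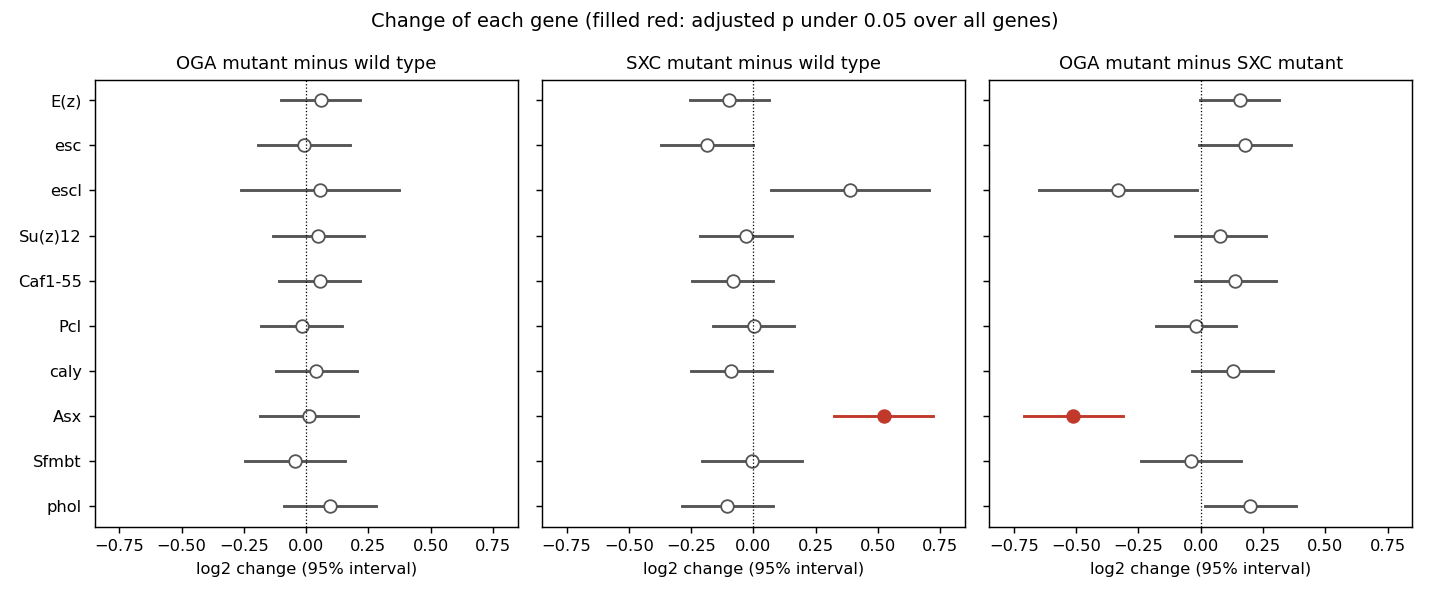
Difference of each gene (horizontal axis, log2, with its 95% interval from limma) in the OGA mutant minus wild type, the SXC mutant minus wild type and the OGA mutant minus the SXC mutant (n = 3 arrays each). Filled points passed at an adjusted p under 0.05; these are Asx at 0.52 in the middle panel and −0.51 in the right panel.

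Set against each other, the mutants differed in Asx: it was lower in the OGA mutant than in the SXC mutant by a log2 change of −0.51 with SE 0.09 (95% interval −0.71 to −0.31, limma adjusted p = 0.00584). The highest OGA mutant array, 9.96, was below the lowest SXC mutant array, 10.22. This comparison shares the SXC mutant arrays with that against wild type and is not independent of it. Asx was again 1 of 10 genes called, against 3.98% of all genes lower and 11.8% called in either direction. Without moderation of the variances the adjusted p was 0.0512, the only alternative of 19 that ended this call.

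For the other genes the order of group levels was not resolved. OGA and SXC mutant arrays did not overlap for 4 genes, against 30.2% of all genes: E(z), Caf1-55 and caly were higher in the OGA mutant and Asx was lower. E(z) differed by 0.16 (95% interval −0.0034 to 0.31) and did not pass (limma adjusted p = 0.197). Caf1-55 differed by 0.14 (95% interval −0.02 to 0.30) and caly by 0.13 (−0.03 to 0.29). phol differed by 0.20 with SE 0.08 (limma adjusted p = 0.153) and escl by −0.33 with SE 0.14 (adjusted p = 0.168). For all of these the wild-type level overlapped with at least 1 of the mutants.

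The 10 genes also varied within groups. OGA mutant replicate 3 was the highest array of its group for E(z), esc, Caf1-55, caly and phol and the lowest for escl, Su(z)12, Pcl, Asx and Sfmbt, so all 10 were at an extreme there, as were 72.3% of all genes. The SD of Asx was 0.17 in the OGA mutant and 0.03 in wild type, that of Sfmbt 0.19 and 0.04, and that of phol 0.17 and 0.03. On that array Sfmbt lay 0.32 below its group mates and phol 0.28 above them. Over all genes it also had the largest mean absolute deviation from its group mates, 0.15, against 0.08 to 0.13 for the other arrays.

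Among the SXC mutant arrays, replicate 3 was highest for 8 of the 10 genes, all but Asx and Caf1-55, and highest for 32.2% of all genes. Deviations from group mates rose with gene length on that array (r = 0.29 across 7166 genes, which are not independent replicates), as on OGA mutant replicate 1 (r = 0.29). On the other arrays r lay between −0.19 and 0.05. The 8 genes highest on SXC mutant replicate 3 included escl (1922 bp), esc (2202 bp) and caly (2272 bp). Asx, the longest of the 10 genes (8536 bp), was not among them. With the length trend removed, the SD of Asx was 0.15 in the OGA mutant, 0.10 in the SXC mutant and 0.05 in wild type. In the SXC mutant the SD of escl went from 0.18 to 0.20 and that of esc from 0.17 to 0.18. That of Pcl went the other way, from 0.13 to 0.12. Whether RNA quality or labelling had a part in this spread was not tested.

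Signs of RNA quality and of other cell types were set beside the Asx result. For GAPDH_r2, a control transcript probed at both ends, the 3′ signal exceeded the 5′ signal by 2.60 to 3.08 (log2) in the SXC mutant, against 2.0 to 2.36 in wild type (exact permutation p = 0.1, two-sided), and the other 4 control pairs overlapped between these groups. The summed level of 9 measured germline markers of 10 was 12.76 to 12.82 (log2) in the SXC mutant and 12.65 to 12.70 in wild type (exact permutation p = 0.1). grk, which encodes the ligand that patterns the egg chamber, rose by 0.40 (limma adjusted p = 0.00484) and was the 1 germline marker called. piwi differed the other way, by −0.40 with groups that did not overlap (adjusted p = 0.110), and the median over the 9 was 0.04. The labels name no tissue. For vas, a defining germline marker, the annotated probe set read low in a table whose lowest value is 3.43. It averaged 4.73 ± 0.09 in the SXC mutant and 4.89 ± 0.11 in wild type (SD, n = 3 each). The array annotation predates some gene merges, so this probe set may not stand for the current vas gene. Its level does not stand for the list either, of which 4 genes averaged above the median gene level of 7.50. Their wild-type means were 11.14 (grk), 11.07 (aub), 9.96 (piwi) and 9.95 (AGO3).

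Neuronal markers (4 measured of 5) summed to 9.15 to 9.25 in the SXC mutant and 9.30 to 9.41 in wild type (exact permutation p = 0.1). Of these, elav was lower by a log2 change of −0.35 (limma adjusted p = 0.0462, and 0.0698 to 0.168 with any 1 SXC mutant or wild-type array left out). Its call also ended with quantile normalization (0.0504), a trend and robust prior (0.0505), a replicate block (0.0536) and no moderation (0.145). Rdl (−0.08), brp (0.01) and nSyb (−0.06) differed little and did not pass, so the lower sum rests largely on elav. Muscle markers (5 of 8) summed to 7.61 to 7.79 in the SXC mutant and 7.56 to 7.60 in wild type (exact permutation p = 0.1). Of them 1, the troponin T gene up, passed as higher (log2 0.43, limma adjusted p = 0.0348). That call ended without SXC mutant replicate 1 or 2 or any 1 wild-type array (0.0524 to 0.125). It also ended with a replicate block (0.066), the length trend removed (0.0613) and no moderation (0.137). Summed levels overlapped between SXC mutant and wild type for eggshell (9 measured of 11), testis (10 of 10), accessory gland (8 of 8), fat body (6 of 6), photoreceptor (1 of 7) and zygotic embryo markers (7 of 7), with 0 markers called. No marker value was 0, but the lowest value of the whole table is 3.43. With no detection calls, this does not show that a marker was expressed. Larval serum markers (0 of 3 measured) gave no value. On the OGA mutant arrays, which lay below the SXC mutant in Asx, the germline sum was 12.67 to 12.82 and the neuronal sum 9.43 to 9.57. The part of these shifts in the Asx result was not tested.

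Other genes of the Polycomb system were examined as lists. In PRC1, which ubiquitinates H2A and compacts chromatin, 0 of 4 measured genes passed in the SXC mutant in limma, while 2, Pc and Scm, had an unadjusted p under 0.05, as did 26.1% of all genes. The list held 8 genes. ph-p and ph-d, the genes of Polyhomeotic, and Su(z)2 and Kdm2 were not analysed here, so PRC1 is covered only in part. Pc, the chromodomain subunit, averaged 8.67 ± 0.07 in the SXC mutant and 8.46 ± 0.07 in wild type (SD, n = 3 each), a difference of 0.21 (limma adjusted p = 0.0676). Scm, which links PRC1 to PRC2, differed by 0.34 (adjusted p = 0.174), Psc by 0.05 and Sce, the ubiquitin ligase, by −0.0002. Jarid2 and jing, accessory subunits of PRC2, differed by 0.09 and −0.0037.

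Among 5 measured genes for DNA-binding recruiters, 1 rose in the SXC mutant and 0 fell, where 5.09% of all genes rose and 7.84% fell. An unadjusted p under 0.05 in limma was found for 2 of the 5, against 26.1% of all genes. psq, which encodes the BTB-domain protein Pipsqueak, averaged 8.50 ± 0.10 in the SXC mutant and 8.05 ± 0.09 in wild type (SD, n = 3 each), a log2 rise of 0.45 (limma adjusted p = 0.0146). The call of psq ended without wild type replicate 1 (adjusted p = 0.0675) and without moderation (0.0769). Spps, an Sp1-like factor, differed by −0.27 (adjusted p = 0.112), and Trl, the GAGA factor, by −0.17. Of 8 genes that oppose Polycomb silencing 0 passed in limma, with 2 at an unadjusted p under 0.05 (kis and osa), a share near that of all genes, 26.1%. trx, the trithorax methyltransferase gene, differed by 0.16 and Utx, which encodes a demethylase that undoes the PRC2 mark, by −0.14.

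Caf1-55 also sits in CAF-1, NURF, NuRD, dREAM and the Hat1 complex, and of 18 other measured genes of these 1 rose and 2 fell in the SXC mutant (median −0.11). Among all genes 5.09% rose and 7.84% fell, so these counts lie near the background shares. At an unadjusted p under 0.05 in limma there were 8 of the 18, a larger share than the 26.1% of all genes. Of the 18 changes 12 were negative, against 51.8% of all genes. lin-52, a dREAM subunit, averaged 8.96 ± 0.15 in the SXC mutant and 9.73 ± 0.11 in wild type (SD, n = 3 each), a change of −0.77 (limma adjusted p = 0.00105). HDAC1, the deacetylase of NuRD also known as Rpd3, changed by −0.43 (adjusted p = 0.0288), and simj, the p66 subunit of NuRD, by 0.33 (adjusted p = 0.00814). The call of HDAC1 ended without SXC mutant replicate 1 or 2 or wild type replicate 1 or 3 (adjusted p = 0.0718 to 0.109). It also ended with no moderation (adjusted p = 0.119).

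Known targets of Polycomb silencing mostly had low values in both groups. The 4 measured Hox genes averaged 4.22 to 5.33, and 15 of 17 other targets (all but chinmo and toy) 3.85 to 6.18, where the lowest value of the table is 3.43. With values so low and no detection calls, a difference near 0 says little about these genes. Of 4 measured Hox genes 0 passed in limma, with differences of −0.16 (Antp, the 1 with an unadjusted p under 0.05) to 0.03 (pb). Of 17 other targets 1 rose and 0 fell, where 5.09% of all genes rose and 7.84% fell. The 1 was chinmo, a BTB zinc finger gene of cell identity. It averaged 11.89 ± 0.06 in the SXC mutant and 11.40 ± 0.10 in wild type (SD, n = 3 each), a rise of 0.49 (limma adjusted p = 0.0240). That call ended without SXC mutant replicate 1 or 2 or wild type replicate 1 or 2 (adjusted p = 0.0557 to 0.102). It also ended with no moderation (adjusted p = 0.114). toy, the other target with higher values, differed by 0.28 (adjusted p = 0.0953). Of the 17 other targets, 4 had an unadjusted p under 0.05 in limma, against 26.1% of all genes.

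Genes of DNA replication, the process during which CAF-1 loads histones on new DNA, fell in larger numbers. Of 16 measured, 9 were lower in the SXC mutant and 0 higher, with a median of −0.30, against −0.01 for all genes. The shares of all genes were 7.84% lower and 5.09% higher. An unadjusted p under 0.05 in limma was found for 13 of the 16, against 26.1% of all genes. Mcm6, a subunit of the replicative helicase, changed by −0.99 (limma adjusted p = 0.000675) and PCNA, the sliding clamp, by −0.52 (adjusted p = 0.00694). The call of PCNA ended with no moderation (adjusted p = 0.0517). The count of lower genes by adjusted p was 4 without SXC mutant replicate 1, SXC mutant replicate 2 or wild type replicate 1. Of the 74 genes in these 8 lists, 0 passed in the OGA mutant against wild type in limma, and 2 (Pc and z) had an unadjusted p under 0.05, against 3.91% of all genes.

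Mammalian PR-DUB is known to bind the O-GlcNAc transferase and the factors HCF1 and FOXK. Of the fly relatives, neither passed in the SXC mutant against wild type. Hcf differed by −0.0038 (95% interval −0.18 to 0.17, limma adjusted p = 0.986) and FoxK by 0.07 (−0.11 to 0.24, adjusted p = 0.682). The mean levels of Hcf were low in both groups, within the range given above for the Hox genes. With no detection calls, the small difference of Hcf therefore says little about that gene. FoxK averaged 9.80 ± 0.10 in the OGA mutant, against 9.62 ± 0.04 in wild type (SD, n = 3 each), a difference of 0.18 that did not pass either (limma adjusted p = 0.975).

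**Figure D4:**
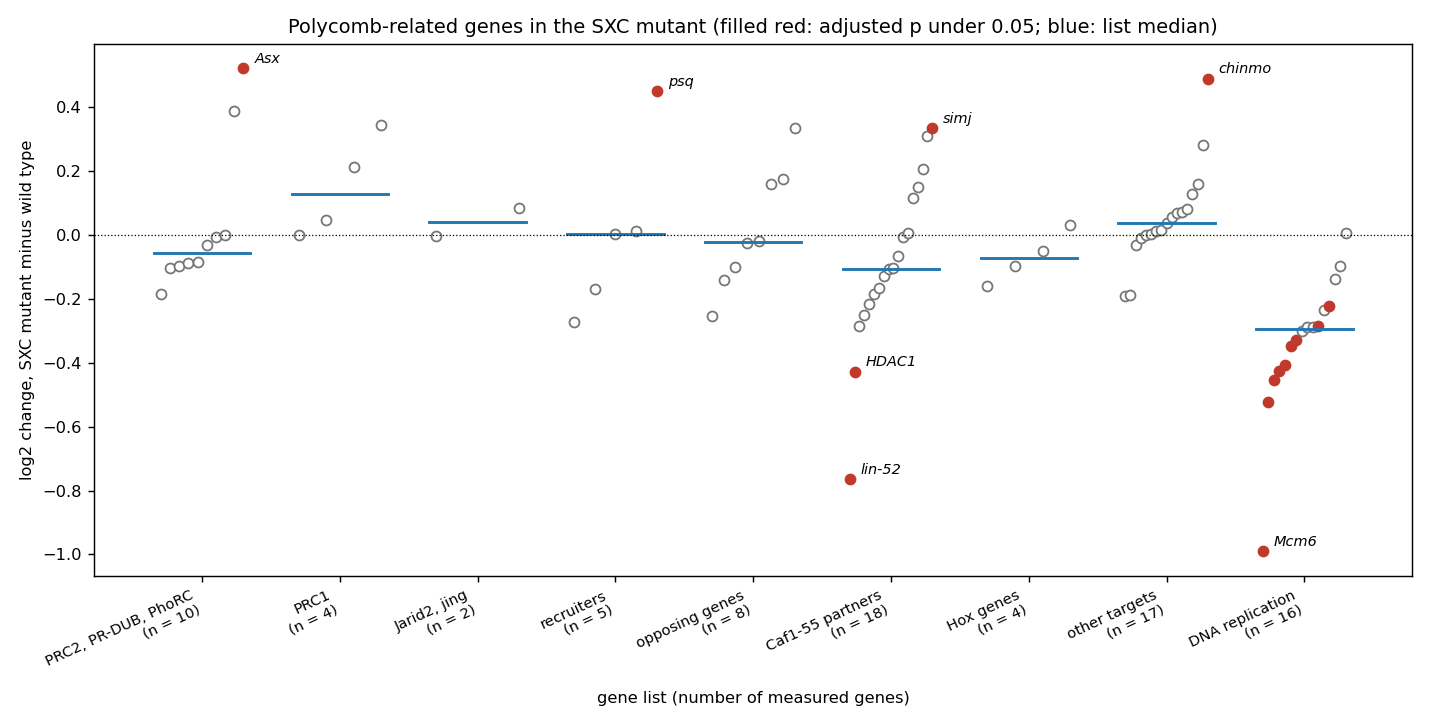
Change in the SXC mutant against wild type (vertical axis, log2) of the genes of PRC2, PR-DUB and PhoRC and of 8 other lists (horizontal axis, with the number measured), 1 point per gene and a bar at the list median. Filled points passed at an adjusted p under 0.05; Asx, at 0.52, is the highest point of all lists shown and Mcm6, at −0.99, the lowest.

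Against the SXC mutant, the OGA mutant had higher levels of 9 of the 16 replication genes (4 with no moderation) and of 3 of 18 genes of other Caf1-55 complexes, where 7.79% of all genes were higher. The 3 were lin-52 (0.69, limma adjusted p = 0.00174), the gene for the largest CAF-1 subunit (0.34, adjusted p = 0.0296), and HDAC1 (0.43, adjusted p = 0.0303). psq (−0.39, adjusted p = 0.0293) and chinmo (−0.51, adjusted p = 0.0213) were lower. The Caf1-55 count was 1 without OGA mutant replicate 1 or 3 or SXC mutant replicate 1 or 2, and 5 without SXC mutant replicate 3. Of these genes, lin-52 kept its call with any array left out, while chinmo lost it without SXC mutant replicate 1 or 2 (adjusted p = 0.0682 to 0.073) and psq without OGA mutant replicate 2 or 3 or SXC mutant replicate 2 or 3 (0.0774 to 0.1). With only the groups compared and with no moderation, chinmo (adjusted p = 0.0505 and 0.112) and psq (0.0608 and 0.116) also lost the call. So did psq with a replicate block (0.0572). These lists share the SXC mutant arrays with the comparison against wild type.

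Asx lies on chromosome 2R, as do caly, Pcl and sxc, while E(z), Su(z)12 and phol are on 3L, esc, escl and Sfmbt on 2L and Caf1-55 on 3R (RefSeq annotation of assembly Release 6 plus ISO1 MT). Between sxc and Asx there were 1049 other measured genes, and 11.7% of genes of 2R were called in the SXC mutant. Of the 20 nearest measured genes of Asx, 0 were higher in the SXC mutant and 2 were lower. These were Blos1 (−0.40, limma adjusted p = 0.00457), a subunit gene of a lysosome-related organelle complex, and tra2 (−0.31, adjusted p = 0.0261), the splicing regulator of the sex determination pathway. The call of tra2 ended without SXC mutant replicate 1 or 2 or any 1 wild-type array (adjusted p = 0.0516 to 0.0884). It also ended with no moderation (adjusted p = 0.0737). The nearest gene on either side, Cpsf160 (0.09) and Cpr51A (−0.06), did not pass.

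The median change of these neighbours was −0.01, and 0 were called in the OGA mutant. Among the 20 neighbours of each other gene described here, 0 to 4 were higher and 0 to 7 lower in the SXC mutant, and 0 were called in the OGA mutant. The 7 lower genes were neighbours of phol, which did not pass itself. Over all genes 5.09% were higher and 7.84% lower in the SXC mutant, so 7 of 20 is a larger share than the background. The neighbours of esc and escl are in part the same genes.

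**Figure D5:**
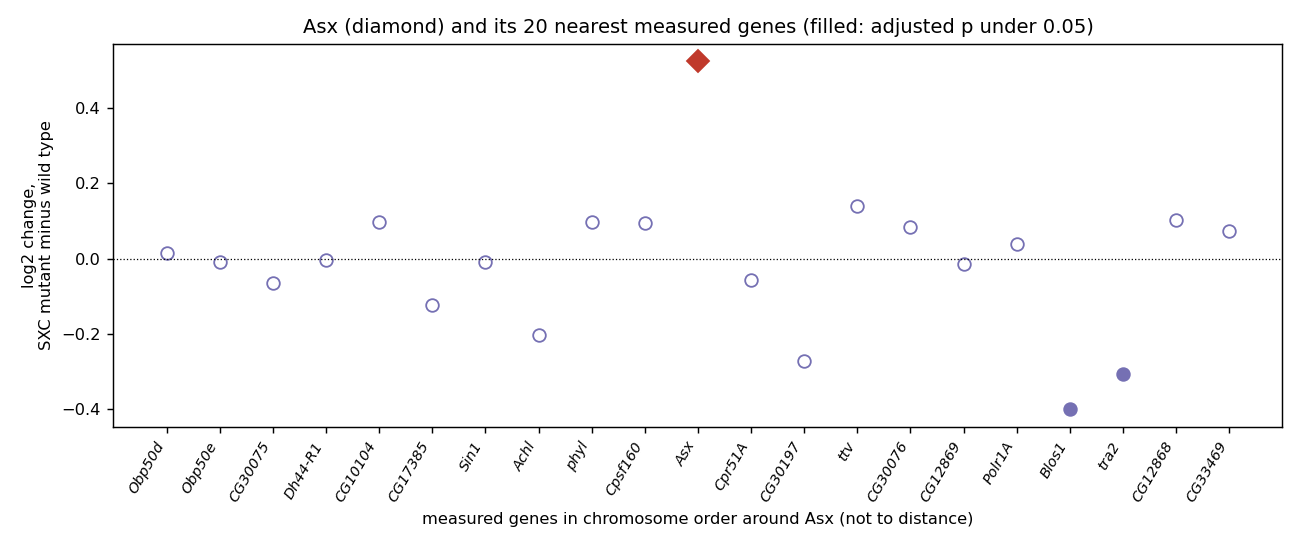
Change in the SXC mutant against wild type (vertical axis, log2) of Asx and its 20 nearest measured genes, in chromosome order and not to distance. Asx (diamond) is at 0.52; of its neighbours, filled where the adjusted p was under 0.05, Blos1 is at −0.40 and tra2 at −0.31.

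The genes with a pattern most like that of Asx over the 9 arrays were Oatp74D, hppy and CG10337, on chromosomes 3L, 2R and 2L. Likeness was the mean absolute difference of mean-centred log2 values among 5991 genes above the median level, and was 0.041 for Oatp74D, 0.052 for hppy and 0.056 for CG10337. Since likeness was measured on these same arrays, the changes of these genes follow from how they were chosen and are no separate evidence. Oatp74D, which encodes the ecdysone importer, was higher in the SXC mutant by 0.51 (limma adjusted p = 0.00200). hppy, a MAP4K-type kinase gene, was higher by 0.60 (adjusted p = 0.00287) and CG10337 by 0.42 (adjusted p = 0.0175). The call of CG10337 ended without SXC mutant replicate 1 (0.0664), without wild type replicate 1 (0.0813) and with no moderation (0.0823). In the OGA mutant against wild type, Oatp74D, hppy and CG10337 differed by 0.06, 0.16 and −0.05, with adjusted p-values of 0.975 to 0.987.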

How the data were processed

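The 10 genes and all lists were chosen with earlier results of these data known. Total RNA was hybridised to 9 arrays. The deposited values are log2 expression, 1 per probe set and array; per the submitters' processing notes, the authors used MAS5, RMA and Partek, with no role stated for any of them. The log2 scale was read from the values (array medians 5.96 to 6.04), and 0 sample columns were unmapped. Of 18952 probe sets, 183 were controls, 13647 listed 1 gene, 402 several and 4720 none. Symbols were updated through Entrez identifiers to RefSeq (assembly Release 6 plus ISO1 MT; 103 probe sets had a gene not in it), and the probe set with the highest mean was kept per gene (11982 genes). Genes absent from RefSeq were left out of the chromosome order. No sequence is printed.

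Group means were modelled over all 9 arrays with limma 3.58.1 in R 4.3.3 (6 residual and 5.17 prior degrees of freedom), with Benjamini-Hochberg adjustment over all genes and 95% intervals from the moderated statistic. Exact permutation tests (two-sided) served for single measures of an array. No detection calls were used, so a level near background cannot be told from none, and the number of arrays limits precision. Arrays of the same number in different groups did not vary together (correlations of −0.22 to 0.29, over 0.1 for 1 of 9 pairs), so numbers were not taken as pairs. Genes named are the 10 members, sxc, Oga, members of the lists, the neighbours of Asx that were called or nearest and the 3 genes most like Asx; the neighbours were chosen after their values were seen. The code was tested on simulated data.

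The alternatives changed the normalization (quantile, median centring, removal of a gene length trend), the genes (none under the 25th percentile; the most variable probe set per gene), the variance model (no moderation, a trend and robust prior, weights per array, a replicate block) or the arrays (only the groups compared, or each array left out).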

Additional observations from a re-analysis of the deposited data

How the results depend on the processing

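Of 570 values of the 10 genes under 19 alternatives each, 566 kept their side of the threshold, 3 became called and 1 lost its call; 37 uncalled values changed sign, none larger than 0.11. Asx in the SXC mutant against wild type stayed called in all 19. The count of the 10 genes called in the SXC mutant against wild type, 1, was 2 with array quality weights, and 1 to 2 when each array was left out in turn, the 2 being without OGA mutant replicate 1. In the OGA mutant against the SXC mutant it was 0 with no moderation (Asx −0.51, adjusted p = 0.0512), and 1 to 2 when each array was left out, again 2 without OGA mutant replicate 1. The added gene was escl. Its change in the SXC mutant against wild type was 0.38 with array quality weights (limma adjusted p = 0.0192) and 0.28 to 0.47 with each array left out (0.0488 without OGA mutant replicate 1, which had the highest escl level of its group). In the OGA mutant against the SXC mutant escl was at −0.49 to −0.22 with each array left out (0.0363 without that array). The replicate block left the count for the 10 genes at 1 in both comparisons that held a call: Asx had an adjusted p of 0.00971 in the SXC mutant against wild type and 0.0114 in the OGA mutant against the SXC mutant. Over all genes, calls in the SXC mutant against wild type numbered 1549, against 2824 with array weights, 820 with no moderation, 664 and 1027 without wild type replicates 1 and 2, and 896 and 984 without SXC mutant replicates 1 and 2. Calls in the OGA mutant against wild type numbered 0 to 2. In the OGA mutant against the SXC mutant 1410 calls became 459 with no moderation, 724 and 793 without SXC mutant replicates 1 and 2, and 806 without OGA mutant replicate 3. The cause of these changes was not tested. Signal over background was not used here, so its limit on each gene is unknown. List counts moved as well: replication genes lower in the SXC mutant numbered 3 to 11, and higher in the OGA mutant than in the SXC mutant 4 to 11, other Caf1-55 complex genes lower 1 to 5 and higher 1 to 3, recruiters higher 0 to 1, and other targets higher 0 to 2.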
